A study of Mus musculus with 2 samples.

Results

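The immunoglobulin constant genes encode the invariant parts of antibodies, and they are described here in mouse aorta together with Jchain, the gene of the chain that joins antibody units into polymers. The heavy chain genes are Ighm, Ighd, Ighg3, Ighg1, Ighg2b, Ighg2c and Igha, and the light chain genes are Igkc and Iglc2. They were picked by symbol, with earlier results of these data known, as 10 of the 31053 genes in a deposited table of counts per cell cluster, and all 10 were found there and in RefSeq. Together they held 696124 unique molecular identifiers (UMIs, each standing for 1 captured RNA molecule), which is 0.992% of the 70206506 UMIs in the table.

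The cells came from the aortic arch and thoracic aorta of Apoe-/- mice, which lack apolipoprotein E and develop atherosclerosis. Both groups carried the Apoe deletion and ate a western diet for 4 weeks, one receiving nt-LNA at 30 mg/kg each week and the other saline. Live cells sorted as CD45+ and CD3- gave 1 library of single-cell 3′ RNA sequencing per treatment, with 4871 nt-LNA cells and 2742 saline cells in 20 clusters. For the mice, the sources used here give neither number nor age nor sex.

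An antibody is built from paired heavy and light chains, and its class is set by the heavy chain constant gene in use. A naive B cell makes IgM and IgD from one long transcript by alternative splicing. Class switching deletes the DNA between the variable segment and a downstream constant gene, so that the cell makes IgG, IgE or IgA instead. Plasma cells secrete antibody in bulk and carry very high levels of these transcripts. In the aorta of hyperlipidaemic mice, B cells are found mainly in the outer wall and the surrounding fat, and natural IgM is known to bind oxidised lipids.

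Counts were deposited per cluster with both libraries pooled, so the level of an immunoglobulin gene cannot be split by treatment and no test between treatments was possible. Levels are UMIs scaled to a cluster total of 1000000 (CPM), and each range in parentheses is an exact 95% interval, which covers counting error and no variation between mice or libraries. Since clustering used the same expression data, differences between clusters are descriptions and carry no p-value. Because 3′ counting yields about 1 UMI per captured molecule whatever the length of the RNA, shares between genes were taken from UMIs without a length correction.

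In all, 4 clusters were deposited as B cells and held 2257 of 7613 cells. Cluster 4 held 453 nt-LNA cells and 170 saline cells, cluster 12 held 188 nt-LNA and 62 saline cells, cluster 2 held 509 nt-LNA and 156 saline cells, and cluster 1 held 371 nt-LNA and 348 saline cells. All 10 B cell markers were detected in every cluster of the table, so only their level set the B cell clusters apart. Their summed level was 5875 CPM in cluster 4, 5901 CPM in cluster 12, 15117 CPM in cluster 2 and 8766 CPM in cluster 1. Over the other 16 clusters that sum ran from 282.9 to 1782 CPM, below every B cell cluster. Cluster 12 stood apart from the other B cell clusters by its T cell markers, which summed to 3501 CPM there, against 128.1 CPM in cluster 4, 333.3 CPM in cluster 2 and 179.6 CPM in cluster 1. All 8 genes of that list had counts in every cluster, so only their level set cluster 12 apart. Cd3d, one chain of the CD3 complex that the sort selected against, reached 518.4 CPM there. It stood at 16.34 CPM in cluster 4, at 46.5 CPM in cluster 2 and at 33.57 CPM in cluster 1. Cluster 2 was shallow, with 2296 UMIs per cell against 11201 in cluster 4, 11884 in cluster 12 and 5925 in cluster 1, and 10.1% of its UMIs were mitochondrial, against 3.53% in cluster 4, 4.16% in cluster 12 and 3.79% in cluster 1. The part that T cell RNA or depth plays in the values of clusters 12 and 2 was not tested. Across all 20 clusters the totals ran from 212515 to 12985745 UMIs, and 2 barcode sequences occurred in both libraries.

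Cluster 4 carried by far the most antibody RNA. The 10 genes made up 5.44% of its UMIs, against 1.06% in cluster 12, 2.61% in cluster 2 and 1.35% in cluster 1. It had the highest level of Ighm, Ighg1, Ighg2b, Igha, Igkc, Iglc2 and Jchain among the 20 clusters. The exceptions were Ighd, which was highest in clusters 1 and 2, and Ighg3 and Ighg2c, which were highest in cluster 2.

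**Figure D1:**
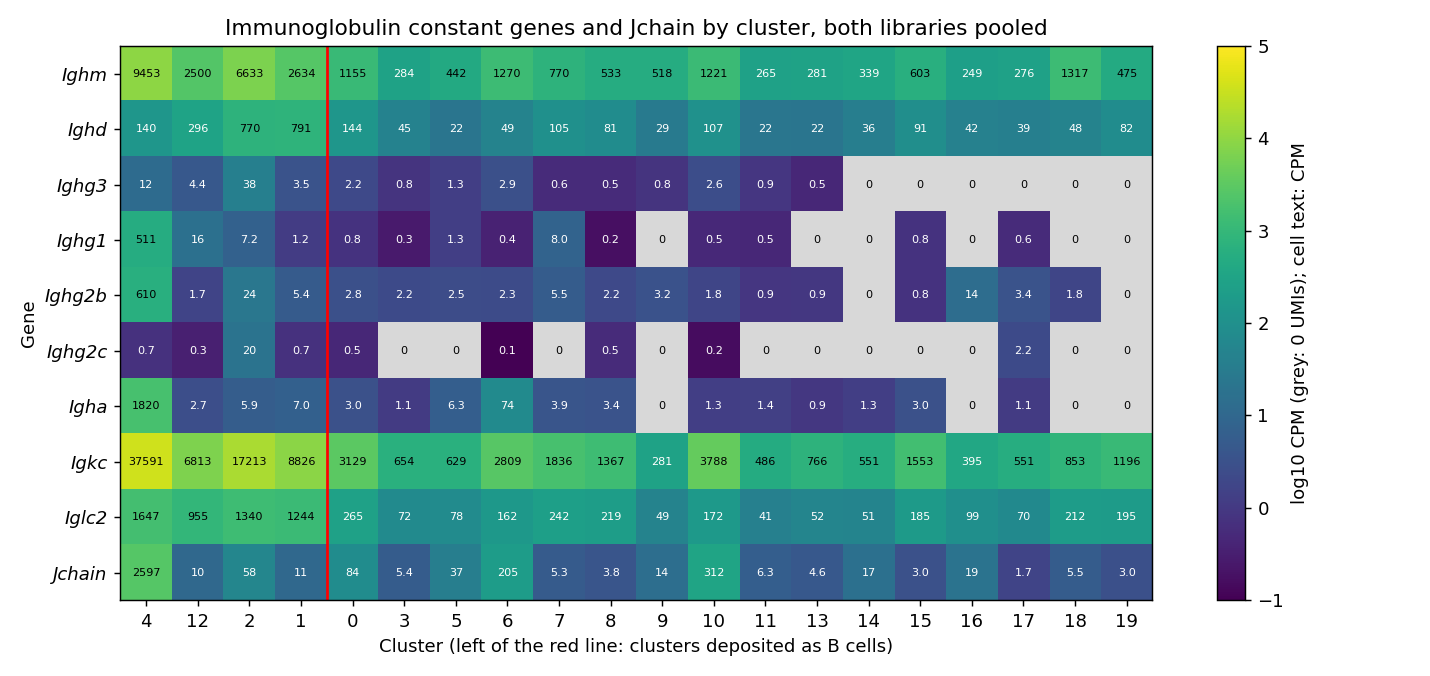
Level of each of the 10 genes (rows) in each of the 20 clusters (columns), as log10 CPM in colour and CPM as text, with both libraries pooled. Columns left of the red line are the clusters deposited as B cells; Igkc reached 37591 CPM in cluster 4, and grey cells held 0 UMIs.

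Ighm, the constant gene of IgM, stood at 9453 CPM in cluster 4 (9381 to 9525), at 2500 CPM in cluster 12 (2443 to 2557), at 6633 CPM in cluster 2 (6504 to 6763) and at 2634 CPM in cluster 1 (2586 to 2683). The intervals of these 4 clusters did not overlap, although the gap between clusters 12 and 1 was small. Its level in cluster 4 was 3.59-fold that in cluster 1 (3.52 to 3.66), 3.78-fold that in cluster 12 and 1.43-fold that in cluster 2 (1.40 to 1.46). Counted per cell, Ighm gave 105.9 UMIs in cluster 4, 29.7 in cluster 12, 15.23 in cluster 2 and 15.61 in cluster 1, so the place of cluster 2 above cluster 1 on the CPM scale was not seen per cell. In the other 16 clusters Ighm ran from 249.4 CPM in cluster 16, over a median of 496.4 CPM, to 1317 CPM in cluster 18, each below the lowest B cell cluster.

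Ighd, the constant gene of IgD that naive B cells splice onto the same variable segment as Ighm, had another order. It stood at 140.2 CPM in cluster 4 (131.5 to 149.2), at 295.9 CPM in cluster 12 (276.6 to 316.1), at 769.5 CPM in cluster 2 (726.1 to 814.8) and at 791.3 CPM in cluster 1 (764.8 to 818.5). Clusters 2 and 1 were not distinguished, with a ratio of 0.973 (0.909 to 1.04). Cluster 4 was 5.65-fold lower than cluster 1 (5.26 to 6.07) and its interval overlapped that of cluster 0, a cluster deposited as macrophages, at 143.5 CPM. Counted per cell, Ighd gave 1.57 UMIs in cluster 4, 3.52 in cluster 12, 1.77 in cluster 2 and 4.69 in cluster 1. On that scale cluster 2 had a ratio of 0.377 to cluster 1, and the ratio of cluster 4 to cluster 2 was 0.889, against 0.182 on CPM.

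The balance of IgD to IgM does not depend on the cluster total. There were 0.0148 Ighd UMIs per Ighm UMI in cluster 4, 0.118 in cluster 12, 0.116 in cluster 2 and 0.3004 in cluster 1. Cluster 4 thus had the lowest and cluster 1 the highest ratio of all 20 clusters. Zfp318, which in mice is needed to make the IgD transcript, followed the order of the Ighd level, with 39.84 CPM in cluster 4, 79.77 CPM in cluster 12, 178.8 CPM in cluster 2 and 192.5 CPM in cluster 1. Fcer2a, the low-affinity IgE receptor CD23 of follicular B cells, stood at 40.13 CPM in cluster 4, at 120.8 CPM in cluster 12, at 337.3 CPM in cluster 2 and at 318.5 CPM in cluster 1.

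The switched isotypes lie downstream of Ighm and Ighd on mouse chromosome 12. From the variable end, the RefSeq annotation of GRCm38 gives the order Ighm, Ighd, Ighg3, Ighg1, Ighg2b, Ighg2c, Ighe and Igha. The IgG genes are close relatives, so their 3′ coding ends are shown for comparison. The 3′ bases past the coding part were not compared. The lines below give the last 120 coding bases of each (GENCODE M21 transcripts on GRCm38, chromosome 12, read along the transcript), with capitals marking bases that differ from Ighg2b at the same place.
Ighg2b: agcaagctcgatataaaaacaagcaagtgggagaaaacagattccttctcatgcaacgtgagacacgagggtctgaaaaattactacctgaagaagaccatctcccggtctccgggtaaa
Ighg2c: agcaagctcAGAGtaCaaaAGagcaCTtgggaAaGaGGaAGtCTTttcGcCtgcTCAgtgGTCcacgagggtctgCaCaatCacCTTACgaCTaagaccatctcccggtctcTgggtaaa
Ighg1: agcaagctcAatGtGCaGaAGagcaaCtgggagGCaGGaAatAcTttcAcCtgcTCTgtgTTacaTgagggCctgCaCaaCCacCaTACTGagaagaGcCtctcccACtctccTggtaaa
Ighg3: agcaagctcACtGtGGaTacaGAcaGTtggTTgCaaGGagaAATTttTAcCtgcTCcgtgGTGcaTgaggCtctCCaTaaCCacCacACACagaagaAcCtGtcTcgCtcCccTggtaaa

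In this stretch Ighg2c differed from Ighg2b at 37 bases, Ighg1 at 39 and Ighg3 at 46. Over the whole coding sequence Ighg2b and Ighg2c were the closest pair, with 85.6% identity, and the other IgG pairs ran from 73.8% to 75.5%. The sources used here do not say how the counting treated reads that match more than 1 gene, so low counts of one IgG gene beside high counts of another are uncertain.

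Igha, the constant gene of IgA, was the most abundant switched isotype and was found almost wholly in cluster 4. It gave 12700 UMIs there, 8 in cluster 12, 9 in cluster 2 and 30 in cluster 1. Its level was 1820 CPM in cluster 4 (1788 to 1852), 2.69 CPM in cluster 12 (1.16 to 5.31), 5.89 CPM in cluster 2 (2.70 to 11.2) and 7.04 CPM in cluster 1 (4.75 to 10.05). The ratio of cluster 4 was 676 over cluster 12 (343 to 1566), 309 over cluster 2 (163 to 675) and 258 over cluster 1 (181 to 383). The intervals of clusters 12, 2 and 1 overlapped with one another, although the ratio of cluster 12 to cluster 1 was 0.382 (0.152 to 0.854). The only other cluster with an Igha level above 10 CPM was cluster 6, with 793 UMIs and 74.4 CPM.

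Ighg1, the constant gene of IgG1, gave 3567 UMIs in cluster 4, 49 in cluster 12, 11 in cluster 2 and 5 in cluster 1. Its level was 511.2 CPM in cluster 4 (494.5 to 528.2), 16.5 CPM in cluster 12 (12.2 to 21.8), 7.20 CPM in cluster 2 (3.60 to 12.9) and 1.17 CPM in cluster 1 (0.381 to 2.74). Cluster 12 was the second highest of all clusters for Ighg1, 14.1-fold above cluster 1 (5.63 to 45.2) and 31.0-fold below cluster 4 (23.4 to 42.0).

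Ighg2b, the constant gene of IgG2b, had 610.2 CPM in cluster 4 (592 to 628.8), 1.68 CPM in cluster 12 (0.547 to 3.93), 23.6 CPM in cluster 2 (16.5 to 32.6) and 5.40 CPM in cluster 1 (3.42 to 8.10). Cluster 4 was thus 113-fold above cluster 1 (75.2 to 179), and 95.6% of all Ighg2b UMIs came from it. Clusters 12 and 2 took opposite places for the 2 IgG genes: Ighg1 was 2.29-fold higher in cluster 12 than in cluster 2 (1.18 to 4.88), while Ighg2b had a ratio of 0.0714, with 5 UMIs in cluster 12 and 36 in cluster 2.

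Ighg3 and Ighg2c were rare everywhere, with 261 and 54 UMIs in the whole table. Ighg3, the constant gene of IgG3, stood at 12.5 CPM in cluster 4 (9.99 to 15.4), at 4.38 CPM in cluster 12 (2.33 to 7.48), at 38.0 CPM in cluster 2 (28.8 to 49.1) and at 3.52 CPM in cluster 1 (1.97 to 5.81). Ighg2c, the constant gene of IgG2c, gave 5 UMIs in cluster 4, 1 in cluster 12, 30 in cluster 2 and 3 in cluster 1, so that cluster 2 had 19.65 CPM (13.3 to 28.1) and the other B cell clusters less than 1 CPM each. Both genes were therefore highest in cluster 2. Cluster 2 exceeded cluster 1 by 10.8-fold for Ighg3 (6.03 to 20.5) and by 27.9-fold for Ighg2c (8.68 to 143), on small counts. Ighe, the constant gene of IgE, had 0 UMIs in every cluster, which allows up to 0.430 CPM in cluster 4, 1.01 CPM in cluster 12, 1.965 CPM in cluster 2 and 0.704 CPM in cluster 1 (the level of 3 counts).

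As shares of the 7 heavy chain genes, IgM led in every B cell cluster. Ighm made up 75.3% of heavy chain UMIs in cluster 4, 88.6% in cluster 12, 88.5% in cluster 2 and 76.5% in cluster 1. The remainder differed in kind. In cluster 1 it was nearly all Ighd, at 23.0% (22.3 to 23.7), against 1.12% (1.05 to 1.19) in cluster 4, 10.5% (9.84 to 11.2) in cluster 12 and 10.3% (9.72 to 10.8) in cluster 2.

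In cluster 4 the remainder was switched. IgG and IgA together made up 23.5% of its heavy chain UMIs (23.3 to 23.8), against 0.907% (0.715 to 1.13) in cluster 12, 1.26% (1.06 to 1.48) in cluster 2 and 0.518% (0.408 to 0.648) in cluster 1. Igha alone was 14.5% in cluster 4 (14.3 to 14.7), Ighg2b 4.86% and Ighg1 4.07%, while Ighg3 was 0.0994%. The leading switched gene thus differed among the B cell clusters: it was Igha in cluster 4 and Ighg1 in cluster 12 at 0.585% (0.433 to 0.772). In cluster 2 it was Ighg3 at 0.507% (0.385 to 0.6545), whose interval overlapped that of Ighg2b at 0.3145% (0.2204 to 0.4351). In cluster 1 Igha at 0.205% and Ighg2b at 0.157% lay close together. A share of UMIs is not a share of cells, since a few cells with much antibody RNA can supply most of a cluster's count.

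**Figure D2:**
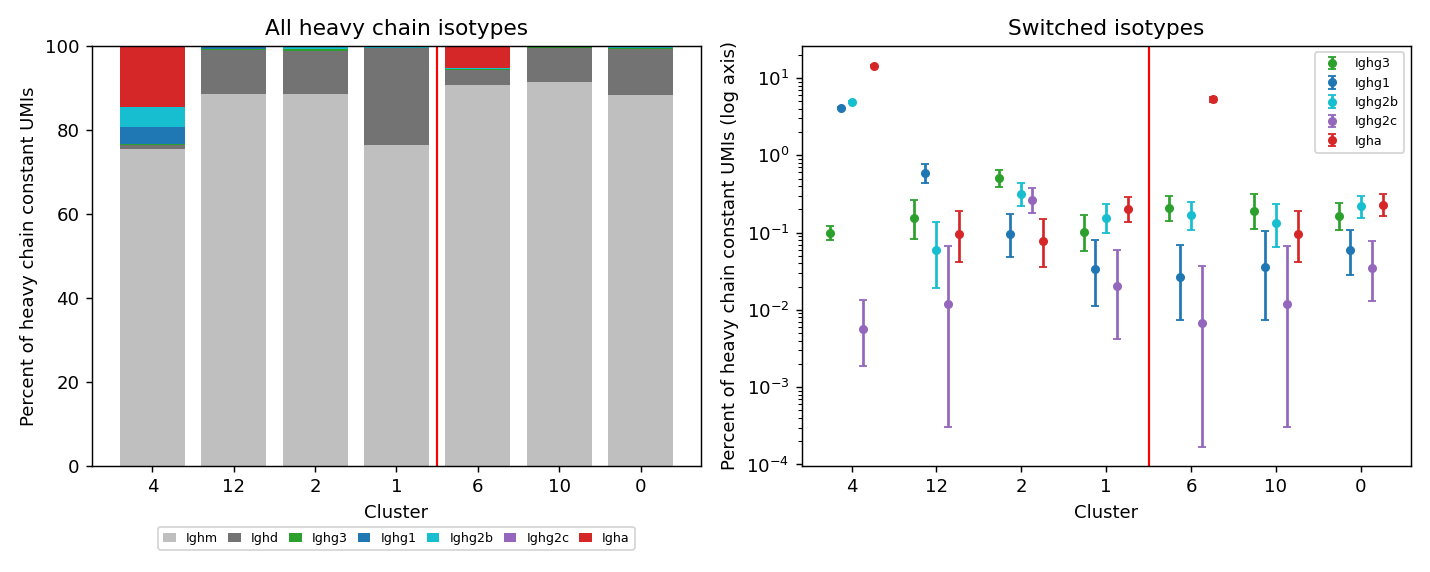
Left, the share of each heavy chain gene in the heavy chain UMIs of clusters 4, 12, 2 and 1 (deposited as B cells, left of the red line) and of clusters 6, 10 and 0. Right, the switched genes alone on a log axis with exact 95% intervals; Igha is at 14.5% in cluster 4 and 5.32% in cluster 6 and below 1% in the other clusters drawn.

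Igkc, the only constant gene of the kappa light chain, was the most abundant of the 10 genes in every cluster except clusters 9 and 18. It stood at 37591 CPM in cluster 4 (37448 to 37736), at 6813 CPM in cluster 12 (6720 to 6908), at 17213 CPM in cluster 2 (17006 to 17423) and at 8826 CPM in cluster 1 (8737 to 8915). In cluster 4 this was 421 UMIs per cell, against 80.96 in cluster 12, 39.5 in cluster 2 and 52.3 in cluster 1. Cluster 4 was 4.26-fold above cluster 1 (4.21 to 4.31), 5.52-fold above cluster 12 and 2.18-fold above cluster 2 (2.16 to 2.21).

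Iglc2, a constant gene of the lambda light chain on chromosome 16, varied much less. It stood at 1647 CPM in cluster 4 (1617 to 1678), at 954.9 CPM in cluster 12 (920.1 to 990.7), at 1340 CPM in cluster 2 (1282 to 1399) and at 1244 CPM in cluster 1 (1210 to 1278). The ratio of cluster 4 to cluster 1 was 1.33 (1.28 to 1.37), the ratio nearest to 1 among the 9 genes with enough counts. Iglc2 as a share of Igkc plus Iglc2 was 4.20% (4.12 to 4.27) in cluster 4, 12.3% (11.9 to 12.7) in cluster 12, 7.22% (6.92 to 7.53) in cluster 2 and 12.4% (12.04 to 12.67) in cluster 1.

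Iglc2 is one of several lambda constant genes, and the count of one may hold reads of another. The lines below give the last 120 coding bases of Iglc2, Iglc3 and Iglc1 (GENCODE M21 transcripts on GRCm38, chromosome 16, read along the transcript), with capitals marking bases that differ from Iglc2 at the same place.
Iglc2: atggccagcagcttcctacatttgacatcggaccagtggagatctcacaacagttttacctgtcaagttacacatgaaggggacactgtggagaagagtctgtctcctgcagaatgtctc
Iglc3: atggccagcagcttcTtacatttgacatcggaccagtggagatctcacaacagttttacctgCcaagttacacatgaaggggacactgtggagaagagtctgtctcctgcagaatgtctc
Iglc1: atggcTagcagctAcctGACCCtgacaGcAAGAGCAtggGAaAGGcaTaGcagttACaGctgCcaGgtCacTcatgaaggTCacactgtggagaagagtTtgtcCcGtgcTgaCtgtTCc

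Iglc3 differed from Iglc2 at 2 bases of this stretch and shared 96.2% of the whole coding sequence with it, whereas Iglc1 differed at 38 bases and shared 73.4%. By these coding bases, the split of counts between Iglc2 and Iglc3 is uncertain, and that between either of them and Iglc1 much less so. The 3′ bases past the coding part were not compared here either. Iglc1 stood at 2194 CPM in cluster 4 (2159 to 2229), at 723.3 CPM in cluster 12, at 932.6 CPM in cluster 2 and at 608.9 CPM in cluster 1. The ratio of cluster 4 to cluster 1 was 3.60 for Iglc1 (3.46 to 3.76), close to the 3.59 of Ighm and unlike the 1.33 of Iglc2. Iglc3 stood at 690 CPM in cluster 4, at 413.3 CPM in cluster 12, at 465.6 CPM in cluster 2 and at 669.5 CPM in cluster 1. Within lambda, Iglc1 held 48.4% of the constant gene UMIs in cluster 4, against 34.6% in cluster 12, 34.1% in cluster 2 and 24.1% in cluster 1. With all lambda genes counted, the lambda share of light chain UMIs was 10.8% in cluster 4, 23.5% in cluster 12, 13.7% in cluster 2 and 22.2% in cluster 1, so cluster 4 was again the lowest of these.

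Jchain, which links IgM into pentamers and IgA into dimers and is a mark of antibody-secreting cells, gave 18121 UMIs in cluster 4, 31 in cluster 12, 88 in cluster 2 and 46 in cluster 1. Its level was 2597 CPM in cluster 4 (2559 to 2635), 10.4 CPM in cluster 12 (7.09 to 14.8), 57.6 CPM in cluster 2 (46.2 to 71.0) and 10.8 CPM in cluster 1 (7.91 to 14.4). Cluster 4 exceeded cluster 1 by 241-fold (180 to 329), cluster 12 by 249-fold (175 to 366) and cluster 2 by 45.1-fold (36.6 to 56.2). Cluster 2 in turn was 5.34-fold above cluster 1 (3.70 to 7.80), while clusters 12 and 1 were not distinguished, with a ratio of 0.966 (0.592 to 1.56). Jchain was also higher in some clusters of other deposited cell types than in clusters 12, 2 and 1, reaching 312.5 CPM in cluster 10 (298.7 to 326.7), 204.7 CPM in cluster 6 and 84.4 CPM in cluster 0.

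Set against all genes, a gene was counted as higher or lower when its CPM differed at least 2-fold and both clusters together held at least 20 of its UMIs. In cluster 4 over cluster 1, 9 of the 10 members had enough counts, of which 7 were higher (Ighm, Ighg3, Ighg1, Ighg2b, Igha, Igkc and Jchain) and 1 was lower (Ighd). Of 10006 genes with enough counts, 6.12% were higher and 7.56% lower. In cluster 4 over cluster 12, 7 of 9 were higher and 1 lower, against 2.7% and 18.9% of all genes. In cluster 4 over cluster 2, 5 of 10 were higher (Ighg1, Ighg2b, Igha, Igkc and Jchain) and 3 lower (Ighd, Ighg3 and Ighg2c), against 7.94% and 34.7% of all genes. The share of members that were higher in cluster 4 was above the background in each of these 3 pairs, and those that were lower were too few to set against it. Counted per cell, Ighg3 was 1.60-fold higher in cluster 4 than in cluster 2, the reverse of its CPM.

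Among the clusters with less antibody RNA, cluster 2 over cluster 1 had 5 of 9 members higher and 0 lower, against 21% and 6.75% of all genes. The 5 were Ighm, Ighg2b, Ighg2c, Ighg3 and Jchain. Cluster 12 over cluster 1 had 1 of 9 higher (Ighg1) and 3 lower (Ighd, Ighg2b and Igha), against 12.2% and 1.87% of all genes. Cluster 12 over cluster 2 had 1 of 9 higher (Ighg1) and 7 lower, against 13.4% and 13.1%. Counted per cell, Ighm, Ighd and Igkc were instead 1.95-fold, 1.99-fold and 2.05-fold higher in cluster 12 than in cluster 2. Members with too few counts were Ighg2c in the pairs 4 over 1, 4 over 12 and 12 over 1, Igha in 12 over 2 and Ighg1 in 2 over 1.

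The scale mattered to the all-gene background. The median log2 ratio over all genes on the CPM scale was -0.21 for cluster 4 over cluster 1, -0.43 over cluster 12 and -0.63 over cluster 2, and with median-of-ratios size factors it was 0.03 over cluster 1, 0.07 over cluster 12 and -0.08 over cluster 2. With size factors, 65.0% of the calls in cluster 4 over cluster 1 were higher, against 44.7% on CPM. For cluster 4 over cluster 12 that share was 45.9% with size factors and 12.5% on CPM, and for cluster 4 over cluster 2 it was 56.3% with size factors and 18.6% on CPM. Counted per cell it was 95.8% for cluster 4 over cluster 1, 9.61% over cluster 12 and 99.8% over cluster 2. The members higher in cluster 4 than in cluster 1 numbered 7 with size factors and 8 per cell.

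**Figure D3:**
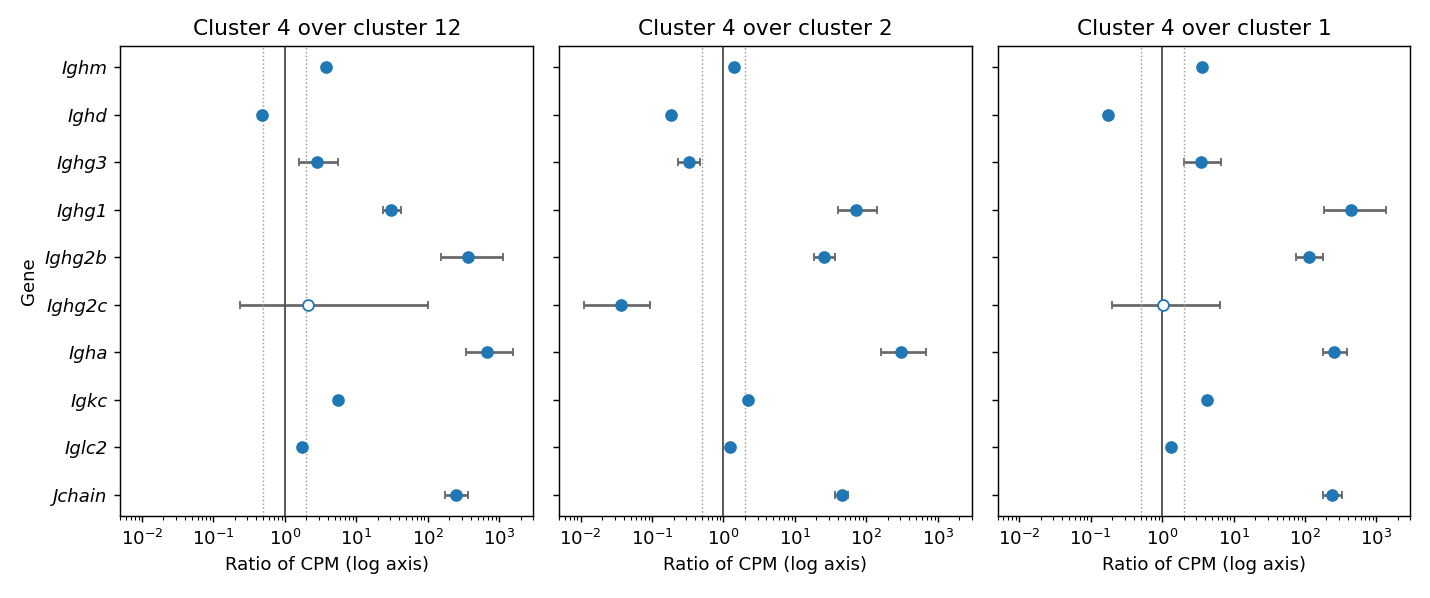
Ratio of CPM in cluster 4 to that in cluster 12, cluster 2 and cluster 1 (log axis), for each of the 10 genes, with exact 95% intervals as lines, dotted lines at 2-fold, and open points where both clusters held under 20 UMIs in all. Igha, Ighg1, Ighg2b and Jchain lie farthest to the right in all 3 panels, and Ighd lies to the left of 1 in each.

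Genes that act with the antibody genes were counted in the same way. Of 10 plasma cell markers, 6 were at least 2-fold higher in cluster 4 than in cluster 1 and 0 lower, with a median log2 ratio of 1.46, against -0.21 over all genes. In that pair 6.12% of all genes were higher and 7.56% lower. In cluster 4 over cluster 12, 7 were higher and 1 lower, against 2.7% and 18.9% of all genes. In cluster 4 over cluster 2, 2 were higher and 0 lower, against 7.94% and 34.7%. Prdm1, the factor that drives plasma cell formation, stood at 39.84 CPM in cluster 4, at 18.2 CPM in cluster 12, at 33.4 CPM in cluster 2 and at 3.05 CPM in cluster 1. Tnfrsf17, the survival receptor BCMA of plasma cells, gave 68 UMIs in cluster 4, 0 in cluster 12, 1 in cluster 2 and 0 in cluster 1. Mzb1, a chaperone of IgM assembly in the endoplasmic reticulum, stood at 917.6 CPM in cluster 4, at 406.3 CPM in cluster 12, at 687 CPM in cluster 2 and at 352.1 CPM in cluster 1. Sdc1, which encodes the plasma cell surface protein CD138, was low, at 9.46 CPM in cluster 4, 2.36 CPM in cluster 12, 7.20 CPM in cluster 2 and 4.93 CPM in cluster 1. Its highest level was 23.3 CPM, in cluster 10. Xbp1, the factor that expands the secretory apparatus, was also highest in cluster 10, at 203.6 CPM, and stood at 116.9 CPM in cluster 4.

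B cell identity genes did not share the pattern of the antibody genes. Of the 10 B cell markers, 0 were higher and 3 lower in cluster 4 than in cluster 1. Of all genes, 6.12% were higher and 7.56% lower. The median log2 ratio of the markers was -0.62, against -0.21 over all genes. Over cluster 12, 0 were higher and 0 lower, against 2.7% and 18.9% of all genes, and the median was -0.06, against -0.43. Over cluster 2, 0 were higher and 9 lower, against 7.94% and 34.7%, and the median was -1.32, against -0.63. Cd79a, the signalling partner of surface immunoglobulin, stood at 2248 CPM in cluster 4, at 2309 CPM in cluster 12, at 5662 CPM in cluster 2 and at 3376 CPM in cluster 1. The list of the B cell receptor complex and its signalling held 12 genes. Of these, 0 were higher and 2 lower (Cr2 and Cd22) in cluster 4 than in cluster 1. Their median was -0.42, against -0.21 over all genes. In cluster 4 over cluster 2, 5 of the 12 were lower, against 34.7% of all genes. The median there was -0.76, against -0.63 over all genes.

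Genes of plasma cell formation and secretion were mixed. Bach2, which holds B cells back from becoming plasma cells, stood at 29.2 CPM in cluster 4, at 57.9 CPM in cluster 12, at 112.6 CPM in cluster 2 and at 122.8 CPM in cluster 1. The list of immunoglobulin secretion and RNA processing held 10 genes. In cluster 4 over cluster 1, 4 were higher (Mzb1, Pdia4, Creld2 and Xbp1) and 1 lower (Zfp318), against 6.12% and 7.56% of all genes. The median was 0.63, against -0.21 over all genes. In cluster 4 over cluster 12, 4 were also higher and 1 lower, against 2.7% and 18.9%, with a median of 0.81, against -0.43. Cluster 4 over cluster 2 had 1 higher and 2 lower, against 7.94% and 34.7% of all genes. The median there was -0.34, above the -0.63 over all genes. Cluster 2 over cluster 1 had 4 higher and 1 lower, against 21% and 6.75%, with a median of 0.97, against 0.42. Hsp90b1, an endoplasmic reticulum chaperone of the same list, stood at 597.7 CPM in cluster 4, at 342.7 CPM in cluster 12, at 808.1 CPM in cluster 2 and at 354.9 CPM in cluster 1. The 3′ counts do not separate the secreted from the membrane form of a heavy chain.

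Receptors and subset genes also differed between clusters. Of 5 antibody receptor genes with enough counts, 0 were higher and 2 lower (Fcmr and Fcer2a) in cluster 4 than in cluster 1. Of all genes, 6.12% were higher and 7.56% lower in that pair. All 5 receptor genes were lower in cluster 4 than in cluster 2, against 34.7% of all genes. Their median there was -1.54, against -0.63 over all genes. Fcmr, the receptor for IgM, stood at 339.8 CPM in cluster 4, at 304.3 CPM in cluster 12, at 967.3 CPM in cluster 2 and at 693.7 CPM in cluster 1. Of 10 genes that separate B-1 from B-2 cells, 6 were higher and 2 lower in cluster 4 than in cluster 1. The higher ones were Spn, Zbtb32, Bhlhe41, Cd9, Plac8 and Il5ra, and the lower ones Fcer2a and Cr2. Of all genes, 6.12% were higher and 7.56% lower, and the median log2 ratio of the list was 1.67, against -0.21. Cluster 12 over cluster 1 also had 6 higher and 2 lower, against 12.2% and 1.87% of all genes. Cluster 2 over cluster 1 had 6 higher and 0 lower, against 21% and 6.75%. Spn, Zbtb32, Bhlhe41, Cd9 and Il5ra were higher than in cluster 1 in clusters 4, 12 and 2 alike, so for them this was not particular to cluster 4. The remaining gene differed: it was Plac8 in cluster 4, Cd5 in cluster 12 and Siglecg in cluster 2. In cluster 4 over cluster 2, 1 was higher and 4 were lower, against 7.94% and 34.7% of all genes. The median there was -0.87, against -0.63 over all genes. Zbtb32, a repressor found in B-1 and plasma cells, stood at 80.97 CPM in cluster 4, at 24.2 CPM in cluster 12, at 51.7 CPM in cluster 2 and at 4.93 CPM in cluster 1. Cr2, the complement receptor CD21, stood at 14.9 CPM in cluster 4, at 56.55 CPM in cluster 12, at 178.1 CPM in cluster 2 and at 154.9 CPM in cluster 1. Vpreb3, a relative of the surrogate light chain genes, stood at 21.2 CPM in cluster 4, at 95.9 CPM in cluster 12, at 174.9 CPM in cluster 2 and at 299.1 CPM in cluster 1.

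Outside the B cell clusters, every cluster held Ighm, Ighd, Igkc, Iglc2 and Jchain. The 10 genes made up between 0.0819% of UMIs in cluster 16 and 0.561% in cluster 10. Igkc ran from 281.3 CPM in cluster 9, over a median of 809.3 CPM, to 3788 CPM in cluster 10. Ighd ran from 21.5 to 143.5 CPM with a median of 46.4 CPM, and Iglc2 from 41.3 to 264.9 CPM with a median of 130.2 CPM. The switched genes had no counts in some clusters, with 0 UMIs of Ighg2c in 11, of Ighg1 in 6, of Ighg3 in 6, of Igha in 4 and of Ighg2b in 2 of the 20 clusters. A count of 0 does not show absence. The level of 3 counts was 2.40 CPM in cluster 9 and 14.1 CPM in cluster 16, which both had 0 UMIs of Igha. Of all UMIs, the B cell clusters held 98.6% for Ighg1 and 97.0% for Ighg2b, but 66.5% for Ighm and 58.7% for Ighd.

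The ratios among the genes differed between clusters, also outside the B cell clusters. Ighm per Igkc UMI was 0.251 in cluster 4, 0.367 in cluster 12, 0.385 in cluster 2 and 0.298 in cluster 1, and it lay above that range in 13 of the 16 other clusters. The highest were cluster 9, deposited as T cells, at 1.84 (1.614 to 2.102) and cluster 18, deposited as macrophages, at 1.54 (1.37 to 1.74). In these 2 clusters Ighm exceeded Igkc, which it did in no other cluster. Jchain per Igkc UMI was 0.0691 in cluster 4, 0.00153 in cluster 12, 0.00335 in cluster 2 and 0.00122 in cluster 1, and it was 0.0825 (0.0787 to 0.0864) in cluster 10 and 0.0729 in cluster 6. In clusters 5, 9 and 16, deposited as T cells, it was 0.05835 (0.0387 to 0.0849), 0.0513 (0.0300 to 0.08225) and 0.0476 (0.0127 to 0.1265). These 3 values rest on 29, 18 and 4 Jchain UMIs, and their intervals include the value of cluster 4.

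Clusters 10 and 6 had different isotypes beside their Jchain. Cluster 6 gave 0.363 Igha UMIs per Jchain UMI and cluster 10 gave 0.00411 (0.00177 to 0.00812), against 0.701 in cluster 4. Of heavy chain UMIs, Igha was 5.32% in cluster 6 (4.96 to 5.69) and 0.0962% in cluster 10, where Ighm made up 91.5%. Both clusters were deposited as macrophages. In cluster 10, macrophage and monocyte markers summed to 17206 CPM, T cell markers to 1108 CPM and B cell markers to 1280 CPM. In cluster 6 the sums were 898.3 CPM for macrophage and monocyte markers, 3539 CPM for T cell markers and 803.4 CPM for B cell markers. The part of these other cell types in the antibody counts was not tested.

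**Figure D4:**
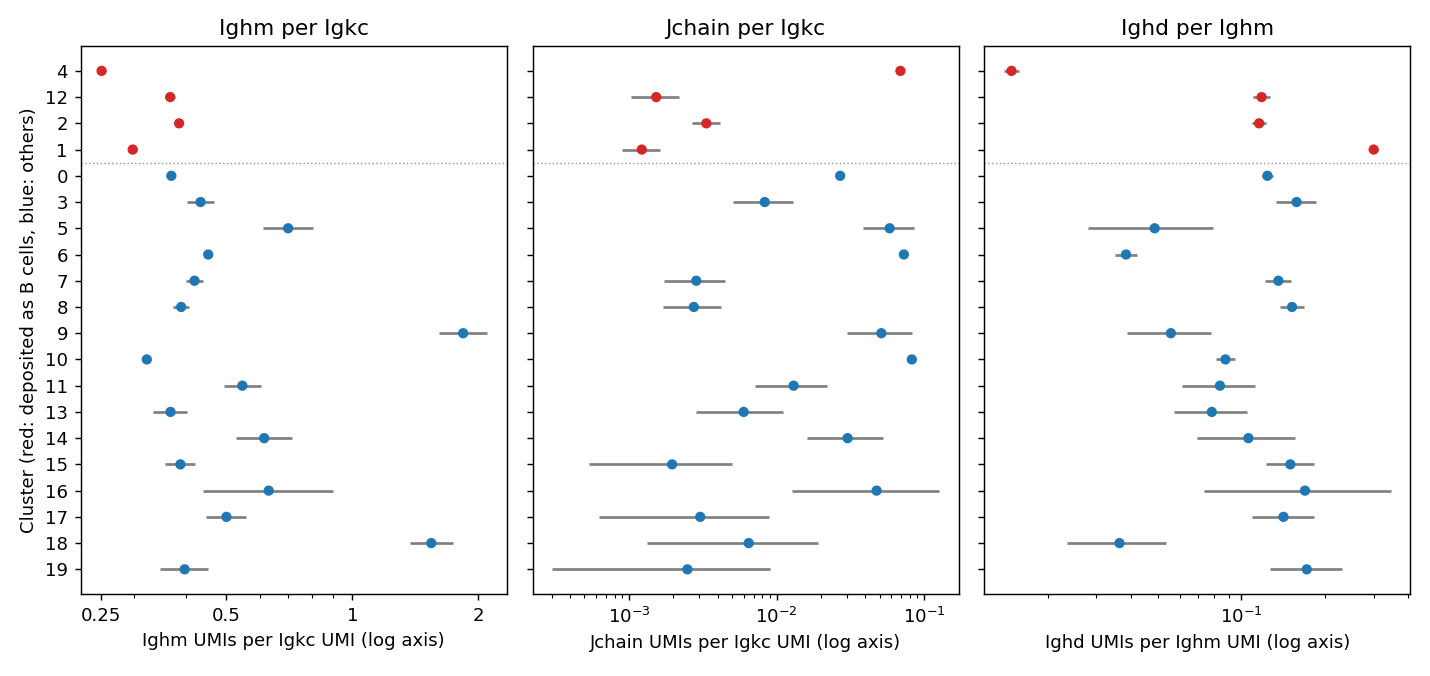
Ighm UMIs per Igkc UMI, Jchain UMIs per Igkc UMI and Ighd UMIs per Ighm UMI (log axes) in each of the 20 clusters, with exact 95% intervals as lines; red points are the clusters deposited as B cells and blue points the others. Clusters 9 and 18 lie far to the right for Ighm per Igkc, and cluster 4 lies farthest left for Ighd per Ighm. Clusters 10, 6 and 4 have the highest Jchain per Igkc, and the wide intervals of clusters 5, 9 and 16 reach past the value of cluster 4.

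The genes whose level followed each member most closely over the 20 clusters were ranked by Pearson's r of log2(CPM + 1), among 12746 genes with at least 50 UMIs and with other immunoglobulin genes left out. The 20 points share 2 libraries and differ in depth, so r is a description. Iglc2 and Ighd went with general B cell genes, with Ms4a1 (CD20) at 0.972 for Iglc2, and Fcer2a at 0.970 and Ebf1 at 0.968 for Ighd. Igkc was closest to Bank1 at 0.935 and Pou2af1 at 0.935, and Ighm to Mzb1 at 0.918 and Cd79b at 0.909. Igha was closest to Tnfrsf17 at 0.919, to Ccr10, a chemokine receptor of IgA plasma cells, at 0.906, and to Prg2, known as a granule protein of eosinophils, at 0.832. Prg2, Tnfrsf17 and Ccr10 were also the first 3 for Jchain, at 0.836, 0.829 and 0.774, on 120, 97 and 84 UMIs in the whole table. Ighg1 was closest to Oosp2 at 0.918, Ighg2b to Tg at 0.808, Ighg3 to Gm30239 at 0.901 and Ighg2c to Abcb10 at 0.773. Among the members themselves r was 0.937 for Ighm with Igkc and 0.745 for Igha with Jchain, and 0.232 for Ighd with Jchain.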

How the data were processed

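Single-cell 3′ libraries were prepared on the 10X Chromium system and sequenced on a NovaSeq, per the labels' protocols. The submitters' processing notes name the tools Cell Ranger 2.1.1 and Seurat and, as genome, mm9. The sources used here state no cell filter or doublet removal. The deposited counts are whole-number UMIs per gene, summed by the authors over the cells of each cluster with both libraries pooled. The deposited cell table gives each cell's library, cluster and cell type name. Per the file headers, a deposited summary holds cell counts, the percent of cells per library, a score of the cell type call and its p-value, of which only the cell counts were checked. The table that the authors scaled was not used.

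CPM, Poisson intervals, conditional intervals of ratios and Clopper-Pearson intervals of shares (95%) were computed with scipy 1.17.1, pandas 2.3.3 and numpy 2.4.6 under Python 3.11.15, and figures drawn with matplotlib 3.10.9. They cover counting error only. No test was made, since each treatment has 1 library. The calculations were tested on simulated data. Genes were called at 2-fold with at least 20 UMIs over both clusters. Limits of a count of 0 use 3 counts. The members and the gene lists were chosen with earlier results of these data known.

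Named genes are all members, the 5 genes closest to each by Pearson's r, and from each list the 2 with most counts in the B cell clusters and the 2 with the largest ratio of cluster 4 over cluster 1. Cd79a, Xbp1, Sdc1, Mzb1, Zfp318, Iglc1, Iglc3 and Ptprc were among those always included, and some genes of the rule are not reported here. Genes that fill a count of 6 or fewer, Ighe, and the variable genes named later were chosen after their values were seen. Sequences come from GENCODE M21 on GRCm38, aligned with Biopython 1.88, and since that build is not the one in the notes, no coordinates are given. Alternatives changed the total, the unit, the filter, the genes in a share and the measure of likeness.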

Additional observations from a re-analysis of the deposited data

How the results depend on the processing

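Counts of members past 2-fold were the same when immunoglobulin genes were left out of the cluster total, and moved by at most 1 member without the filter on low counts. Without mitochondrial and ribosomal protein genes in the total, and with median-of-ratios size factors, 0 members were lower in cluster 4 than in cluster 12, since Ighd lay close to 2-fold. Counted per cell, 1 member was lower in cluster 4 than in cluster 2. For cluster 12 over cluster 1, 2 were higher and 0 lower per cell, and for cluster 12 over cluster 2, 3 were higher and 2 lower. For cluster 2 over cluster 1, 3 were higher and 3 lower per cell. Among ratios past 2-fold on CPM, those that turned round per cell were Ighg3 in 4 over 2 (1.60), Ighm (1.95), Ighd (1.99) and Igkc (2.05) in 12 over 2, and Ighm in 2 over 1 (0.976). A 3-fold threshold, chosen after seeing the data, gave 0 lower in 4 over 12, 1 lower in 12 over 1, and 0 higher and 4 lower in 12 over 2. Without Ighd in the denominator the switched share in cluster 1 was 0.673%. With all lambda genes the lambda share was 10.8% in cluster 4, 23.5% in cluster 12, 13.7% in cluster 2 and 22.2% in cluster 1. Of the 50 genes closest to the members, 14 were shared with Spearman's rho, 26 without clusters 2, 5, 14 and 16, and 30 with log2(CPM + 10). Ratios of single members moved by more than their counting interval in 38 of 60 cases per cell, 26 with size factors, 24 without mitochondrial and ribosomal protein genes and 8 without immunoglobulin genes, beside the 5 per cell just named. Counting also ratios under 2-fold, 13 of 60 lay on the other side of 1 per cell, among them Igkc (0.756) in 2 over 1 and Iglc2 (3.69) in 12 over 2. Iglc2 in 2 over 1 did so with size factors (0.865) and without mitochondrial and ribosomal protein genes (0.851) too. Apart from the alternatives' own construction, the cause was not tested. No paired analysis was possible because each treatment has 1 library and the counts pool both. For the same reason no library could be left out. Depth limits Ighg2c and Ighg3 most.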

Other observations

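The variable genes were counted beside the constant genes, and those named here were chosen after their values were seen. In cluster 10, 94 of 135 Igkv UMIs (69.6%, exact interval 61.1 to 77.2) belonged to a single gene, Igkv8-30, which had 7 of 1296 in cluster 4 and 114 in all clusters. Ighv14-2 gave 15 of the 56 Ighv UMIs of cluster 10 and 23 UMIs in all clusters. Both genes thus had most of their UMIs in a cluster deposited as macrophages that also held the second highest Jchain and hardly any Igha. Cluster 6, the second highest for Igha, had other leading genes than cluster 10, with 55 of 193 Igkv UMIs from Igkv4-57-1 and 30 of 99 Ighv UMIs from Ighv4-1. Both were also found in cluster 4, with 33 of 1296 Igkv UMIs and 116 of 595 Ighv UMIs. Ighv1-22 gave 24 of the 99 Ighv UMIs of cluster 6, against 1 of 595 in cluster 4 and 9 of 265 in cluster 1.

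Cluster 4 held 60 of the 67 UMIs of Ighv11-2 and 104 of the 106 UMIs of Igkv14-126. These 2 genes are known in mice as a heavy and light chain pair of B-1 cells that bind phosphatidylcholine, but counts per cluster do not show whether the same cells held both. Ighv4-1 gave 116 of the 595 Ighv UMIs of cluster 4. Among lambda variable genes, Iglv1 gave 686 of 780 UMIs in cluster 4, against 24 of 46 in cluster 12, 24 of 48 in cluster 2 and 26 of 49 in cluster 1, beside the high Iglc1 of cluster 4.

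Cluster 18, deposited as macrophages with 59 cells, had the highest Iglc3 of all clusters, at 716.6 CPM on 389 UMIs. It gave 3.38 Iglc3 UMIs per Iglc2 UMI (2.74 to 4.20), against 0.348 to 0.538 in the B cell clusters, and lambda genes made up 55.3% of its light chain UMIs. Dendritic cell markers summed to 3412 CPM in cluster 18, macrophage and monocyte markers to 1111 CPM and B cell markers to 886.1 CPM. The Ighm level there exceeded that of Igkc. Whether a few cells supplied these UMIs was not tested, since counts per cell are not used here.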
